A study of Mus musculus with 16 samples.

Results

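Potassium channel genes were taken as every row whose symbol starts with Kcn, the mouse prefix for potassium channel subunits and their partners. Of 98 such rows, 4 antisense transcripts were left out (Kcnd3os, Kcnq1ot1, Kcnmb4os1 and Kcnmb4os2), and Kcnj1 had no read in any library. The other 93 were detected in 1 or more of the 12 libraries, as were 20978 of the 24421 listed genes. After sleep disruption (SD), 27 of the 93 (29.0%) passed the test in wild-type cortex, where 25.4% of all genes tested did. In cortex of mice lacking AcPb 20 (21.5%) passed, against 27.4% of all genes, and 16 (17.2%) passed in both genotypes with the same direction, against 19.3%. Among the 7 that rose in both were Kcnip1, Kcnip3, Kcnj12, Kcnj6, Kcnk13 and Kcnn2. The 9 that fell in both were Kcnc4, Kcnd1, Kcnh3, Kcnj11, Kcnj4, Kcnk12, Kcnk9, Kcns2 and Kcnv1.

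Potassium channels let potassium ions leave or enter a cell along their gradient, which sets the resting potential, ends action potentials and limits repetitive firing. Voltage-gated (Kv) subunits open on depolarization, inward rectifiers and two-pore channels carry current near rest, and calcium- and sodium-activated channels respond to the ions that enter during firing. Silent Kv subunits form no channel alone and modify Kv2 channels, while auxiliary subunits alter the gating or surface delivery of the pore-forming ones. Potassium conductances help to make cortical neurons fall silent together during the slow waves of non-rapid eye movement sleep, so these genes are of interest in a study of sleep loss.

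The groups were undisturbed wild-type mice (CTL-WT), wild-type mice after SD (SD-WT), undisturbed AcPb-/- mice (CTL-AcPbKO) and AcPb-/- mice after SD (SD-AcPbKO), with 3 libraries each. All were labelled as male mice aged 2 to 3 months on a C57BL/6 background. Breeding at the university for 5 to 7 generations was recorded for the samples of all groups. AcPb is the neuronal isoform of the interleukin-1 receptor accessory protein, and its loss was not limited to one cell type or age. SD was kept up for 8 h, from zeitgeber time (ZT) 20 to ZT4, by gentle handling, and somatosensory cortex of all groups was collected at ZT4. The labels list 16 samples, and 4 of them, 1 SD-WT, 2 CTL-AcPbKO and 1 SD-AcPbKO, were not analysed here. Nothing in the labels ties a library to a litter or a day, so p-values measure the spread between these libraries.

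Libraries held 26504840 to 41615582 reads in undisturbed mice and 58770286 to 71857505 after SD. Depth therefore moved with SD, and its part in the results was not tested beyond the fit on thinned reads given with the other settings. Xist reads, 25352 to 39358 per library, were present in 4 of the 6 undisturbed libraries (CTL-WT-02, CTL-WT-03, CTL-AcPbKO-04 and CTL-AcPbKO-05), which had 0 to 2 reads of Y-linked genes, although all mice were labelled male. The other 8 libraries held 5 to 13 Xist reads. Every SD library was among these 8, so results are also given from a joint fit of all 12 libraries with a term for the Xist libraries. That fit differs from the fits of 6 libraries in both respects, and where the joint fit alone ended a call this is said below. Of 6 oligodendrocyte markers 4 fell with SD in wild-type and none in AcPb-/-, with summed normalized counts of 101690 to 128750 in CTL-WT, 83321 to 116060 in SD-WT, 50416 to 118310 in CTL-AcPbKO and 67509 to 100950 in SD-AcPbKO, and their part in the results was not tested. Of 10 striatal markers 2 fell in wild-type and none in AcPb-/-. Their sums were 16844 to 31346 in CTL-WT, 19881 to 23265 in SD-WT, 18621 to 22688 in CTL-AcPbKO and 22296 to 27426 in SD-AcPbKO. CTL-WT-01 had the highest sum, with Adora2a at 814 there and 99.5 in CTL-WT-03. The part of striatal tissue in the results was not tested. SD-AcPbKO-04 had a normalized count of 16186 for the choroid plexus marker Ttr, against 10.6 to 283 elsewhere. The deleted part of the AcPb gene cannot be told from its other isoforms in a count per gene, so these tables do not check the genotype. Cortical neuron markers (5 of 5 present) had summed normalized counts of 305640 to 355580 in the 12 libraries, and 1 rose and none fell in each genotype. Within that sum Neurod6 was at 2352 to 2791 in CTL-WT and 4421 to 5217 in SD-WT. In AcPb-/- mice Neurod6 was at 2047 to 2477 undisturbed and 4223 to 5505 after SD. In bulk tissue, fewer cells of a type and less RNA per cell cannot be told apart.

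Levels were compared between genes as normalized counts per kb of annotated exon, averaged over the 12 libraries. The highest were Kcnab2 at 3956 per kb and Kcna1 at 3392 per kb, followed by Kcnj9 at 2581 per kb and Kcnip2 at 2419 per kb. Kcnab2 encodes a cytoplasmic beta subunit of Kv1 channels and Kcna1 an axonal Kv1 pore subunit. Kcnj9 is a G protein-gated inward rectifier and Kcnip2 a partner of Kv4 channels. The lowest were Kcnk16 at 0.0743 per kb, Kcne1, Kcnj15, Kcnmb3 and Kcnv2, the last at 0.815 per kb, and no library held more than 9 reads of any of these 5. In all, 69 of the 93 averaged 100 normalized counts or more and 12 were under 10. Reads of the 93 together made up 0.684% to 0.770% of a library's reads, with medians of 0.731% in CTL-WT, 0.734% in SD-WT, 0.716% in CTL-AcPbKO and 0.742% in SD-AcPbKO.

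**Figure D1:**
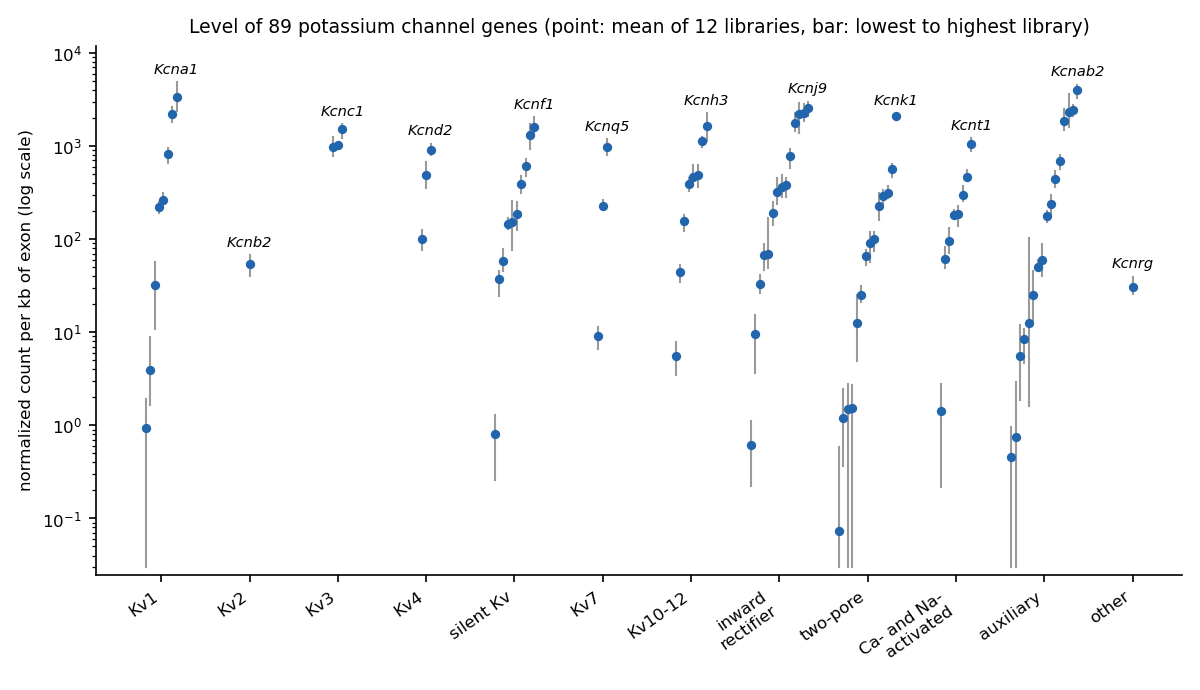
Normalized count per kb of exon (log scale) of 89 of the genes by subfamily, ordered by level within each. Points are means of 12 libraries and bars run from the lowest to the highest library, a bar that reaches the lower edge having a library at 0. The highest gene plotted in each subfamily is named, from Kcnab2 at 3956 per kb among the auxiliary subunits to Kcnrg at 30.9 per kb.

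Per-library values below are normalized counts with all 12 libraries scaled together, in the order of the library numbers. Log2 fold changes come from the 6 libraries of each comparison on the log2(normalized count + 1) scale, which understates changes of low genes, and adjusted p is limma's with Benjamini-Hochberg adjustment over all genes tested. In wild-type mice 27 of the 93 (29.0%) passed an adjusted p of 0.05, 9 higher and 18 lower after SD. Over all 20417 genes tested, 25.4% passed, 13.2% higher and 12.2% lower. In AcPb-/- mice 20 of the 93 (21.5%) passed, 9 higher and 11 lower, against 27.4% of all 20574 genes, 14.1% higher and 13.3% lower. The shares of potassium channel genes were thus near or under those of all genes. Among genes that averaged 100 normalized counts or more, 23 of 69 (33.3%) passed in wild-type against 35.2% of all such genes, and 20 of 70 (28.6%) in AcPb-/- against 39.0%. The groups did not overlap for 38 of the 93 in wild-type, 11 higher and 27 lower, where 40.2% of all genes were so separated, and for 28 of the 93 in AcPb-/-, 13 higher and 15 lower, where 42.3% were. The median log2 fold change of the 93 was -0.04 in wild-type and 0.01 in AcPb-/-, beside -0.0039 and 0.01 over all genes.

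**Figure D2:**
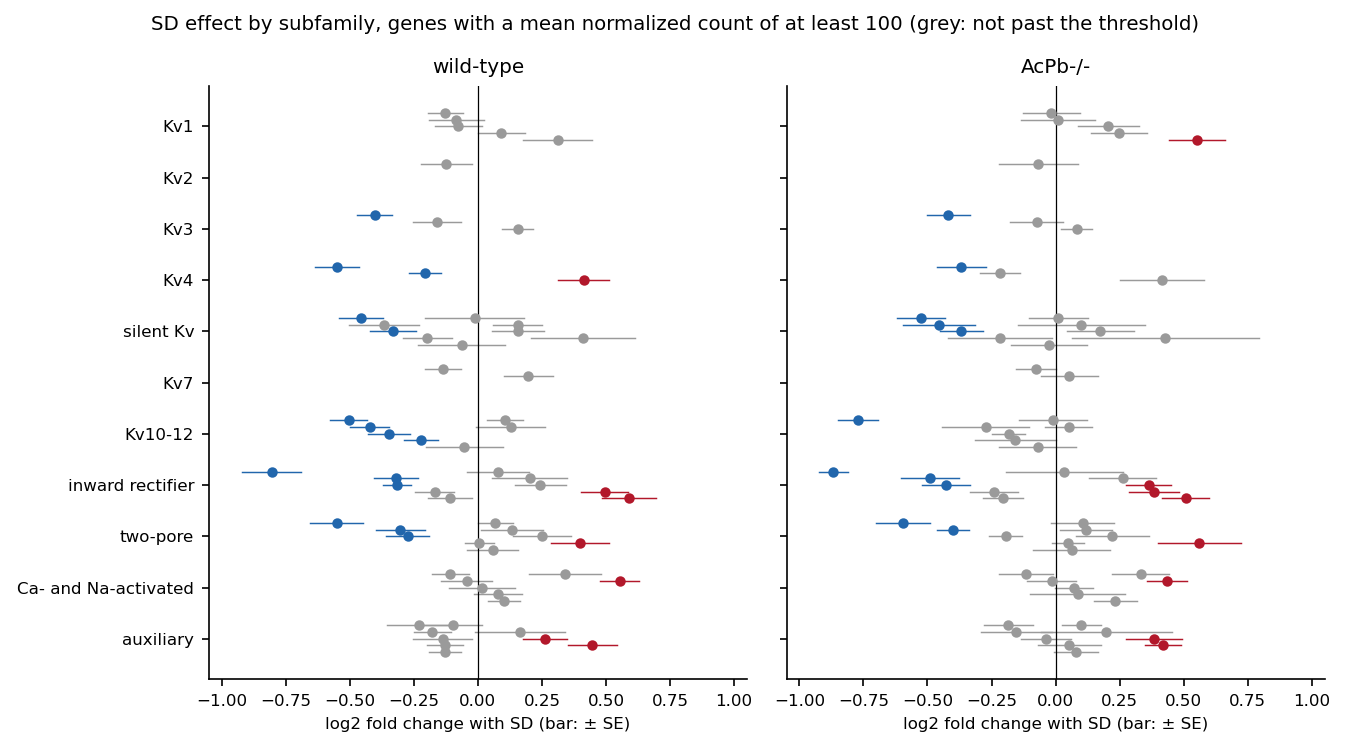
Log2 fold change with SD (x axis, bar ± SE from limma) of potassium channel genes that averaged 100 normalized counts or more, by subfamily, in wild-type (left) and AcPb-/- mice (right). Red points rose, blue points fell and grey points did not pass the threshold. Inward rectifiers held the lowest value in both genotypes, -0.80 and -0.87 for Kcnj4.

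Inward rectifiers, 14 genes, had 2 higher and 4 lower in wild-type and 3 higher and 3 lower in AcPb-/-. Subfamily counts here and below stand beside all-gene shares of 13.2% higher and 12.2% lower in wild-type. In AcPb-/- those shares were 14.1% and 13.3%, and no subfamily was tested as a set. Kcnj4 (chr15:79483714-79505241, minus strand) encodes a strong inward rectifier of forebrain neurons that holds the membrane near the potassium equilibrium potential. Its normalized counts were 5922, 6252 and 5790 in CTL-WT and 3205, 2938 and 4275 in SD-WT. They were 6081, 6139 and 6037 in CTL-AcPbKO and 3139, 3374 and 3484 in SD-AcPbKO. Every SD library was below every undisturbed one. The log2 fold change was -0.80 ± 0.12 (SE, adjusted p = 0.00127), or 0.572-fold, in wild-type and -0.87 ± 0.06 (adjusted p = 0.000444), or 0.548-fold, in AcPb-/-. With a term for the Xist libraries it was -0.80 and -0.86, and with trends over GC content and exon length removed it was -0.63 in both genotypes.

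Kcnj12 encodes another strong inward rectifier of the same Kir2 group, and it moved the other way. Its normalized counts were 828, 700 and 671 in CTL-WT and 1047, 1013 and 1256 in SD-WT, a log2 change of 0.59 ± 0.11 (adjusted p = 0.00342). They were 791, 726 and 649 in undisturbed AcPb-/- mice and 966, 850 and 1000.3 after SD, a log2 change of 0.38 ± 0.10 (adjusted p = 0.0207). SD libraries were above undisturbed ones in both genotypes, though with the Xist term the AcPb-/- value was 0.22 (adjusted p = 0.175) and did not pass. Kcnj2, the third Kir2 gene among the named ones, fell in AcPb-/- from 1365, 1151 and 1013 to 899, 777 and 816 (log2 fold change -0.49 ± 0.11, adjusted p = 0.0132). In wild-type the same gene was at 1186, 1220 and 982 undisturbed and 1049, 1057 and 1025 after SD, groups that overlapped (adjusted p = 0.408).

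Kcnj3, Kcnj5, Kcnj6 and Kcnj9 encode the G protein-gated inward rectifiers, which open when receptors for transmitters such as adenosine, serotonin or GABA release G protein beta-gamma subunits. Kcnj6 (chr16:94748636-94997701, minus strand) rose from 2360, 2172 and 2431 in CTL-WT to 3519, 3544 and 2798 in SD-WT, a log2 change of 0.49 ± 0.09 (adjusted p = 0.00438). It rose in AcPb-/- from 2167, 2325 and 2360 to 3720, 2941 and 3104, a log2 change of 0.51 ± 0.09 (adjusted p = 0.00461). The SD libraries were all above the undisturbed ones. Kcnj3 fell in wild-type from 9347, 10731 and 11824 to 8560, 8964 and 7962 (log2 fold change -0.32 ± 0.09, adjusted p = 0.0221), and in AcPb-/- its value of -0.24 ± 0.09 missed the threshold (adjusted p = 0.0892), which it passed with GC and length trends removed (-0.34, adjusted p = 0.0252). With the Xist term the wild-type value of Kcnj3 was -0.15 (adjusted p = 0.271), and 31.1% of its exon bases lie opposite Gm26794, whose reads cannot be told apart if counting ignored strand. Kcnj9, the most abundant of the 4 per kb, was at -0.17 in wild-type (adjusted p = 0.134) and -0.20 in AcPb-/- (adjusted p = 0.0875).

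Kcnj5 is the rarest of these subunits here, with 15 to 100 reads in a library. Its normalized counts were 67.1, 69.0 and 49.2 in CTL-WT and 30.3, 28.2 and 17.0 in SD-WT, a log2 change of -1.29 ± 0.27 (adjusted p = 0.00669). They were 50.9, 26.5 and 32.5 in undisturbed AcPb-/- mice and 46.5, 47.8 and 70.9 after SD, where the groups overlapped and the log2 fold change of 0.60 ± 0.30 did not pass (adjusted p = 0.171). The difference of the SD effects, AcPb-/- minus wild-type, was 1.89 ± 0.42 on the log2 scale with an unadjusted p of 0.000615 and an adjusted p of 0.986, so it was not called.

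Kcnj11 and Kcnj8 encode the pores of ATP-sensitive channels, which open when cellular ATP falls, and Abcc8 and Abcc9 encode their sulfonylurea receptor subunits. Kcnj11 fell from 3338, 3182 and 3226 to 2642, 2567 and 2622 in wild-type (log2 fold change -0.32 ± 0.05, adjusted p = 0.00305). It fell from 3222, 3145 and 3428 to 2345, 2809 and 2158 in AcPb-/- (log2 fold change -0.43 ± 0.09, adjusted p = 0.0113), and the groups did not overlap in either genotype. With GC and length trends removed the AcPb-/- value was -0.28 (adjusted p = 0.0377). Its neuronal partner Abcc8 fell by 0.52 (adjusted p = 0.00655) and by 0.69 (adjusted p = 0.0045) on the log2 scale. Abcc9, the subunit found with Kcnj8 in pericytes and smooth muscle, rose by 0.41 (adjusted p = 0.00845) and 0.52 (adjusted p = 0.0157). Kcnj8 itself was at 0.20 (adjusted p = 0.355) and 0.03 (adjusted p = 0.924). Abcc8 was at -0.38 in wild-type with the Xist term (adjusted p = 0.0905). Of 6 mural cell markers, 2 rose in wild-type and 1 in AcPb-/-, with summed normalized counts of 8393 to 9028 in CTL-WT, 8130 to 9962 in SD-WT, 8523 to 9152 in CTL-AcPbKO and 7642 to 9590 in SD-AcPbKO. Of 5 endothelial markers 3 rose and 1 fell in each genotype, with sums of 10004 to 11020 in CTL-WT, 10910 to 13289 in SD-WT, 9964 to 11315 in CTL-AcPbKO and 10325 to 12325 in SD-AcPbKO. The part of either cell type in the Abcc9 result was not tested. Abcc9 in AcPb-/- was at 0.41 with GC and length trends removed and did not pass (adjusted p = 0.0595).

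Kcnj10 and Kcnj16 form the channel with which astrocytes take up potassium. Kcnj16 rose in AcPb-/- from 1254, 1282 and 1549 to 1785, 1692 and 1747 (log2 fold change 0.36 ± 0.09, adjusted p = 0.0158), and in wild-type its value of 0.24 ± 0.10 did not pass (adjusted p = 0.105) as the groups overlapped. Kcnj16 passed in both with the Xist term, at 0.41 (adjusted p = 0.012) and 0.53 (adjusted p = 0.00225), and with GC and length trends removed in neither. Kcnj10 did not pass, at 0.08 in wild-type (adjusted p = 0.687) and 0.26 in AcPb-/- (adjusted p = 0.178). Of 7 astrocyte markers, 2 fell in wild-type and 1 in AcPb-/-, and their summed normalized counts were 219640 to 266400 in the 12 libraries. Kcnj13, a rectifier of choroid plexus and retinal pigment epithelium, was at 216 in SD-AcPbKO-04 and 62.2 to 106 in the other 11 libraries, and Kcne2, an auxiliary subunit of choroid plexus, was at 182 there and 2.83 to 19.4 elsewhere. These are the genes that stood with Ttr in that library, and neither passed in any comparison. For Kcnj13, 49.1% of exon bases lie opposite Gigyf2.

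Among the Kv subunits, Kv1 (8 genes) had 1 higher in AcPb-/- and none called in wild-type. Kv4 (3 genes) had 1 higher and 2 lower in wild-type and 1 lower in AcPb-/-.

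Kcna1, whose channels limit axonal and terminal excitability, rose in AcPb-/- from 12073, 11470 and 13350 to 19551, 19726 and 15029, a log2 change of 0.55 ± 0.11 (adjusted p = 0.00758). In wild-type it was at 14807, 14232 and 16739 undisturbed and 19241, 23275 and 15062 after SD, groups that overlapped through SD-WT-04 (0.31 ± 0.13, adjusted p = 0.117). Without SD-WT-04 the wild-type value was 0.48 (adjusted p = 0.00507), and of the 6 fits with a library left out only that 1 passed. Those fits ranged from 0.16 to 0.48, with adjusted p up to 0.394. With the Xist term Kcna1 was at 0.34 in wild-type (adjusted p = 0.202), and by DESeq2 at 0.33 (adjusted p = 0.0305). The difference of the effects was 0.24 with a 95% interval from -0.20 to 0.67 on the log2 scale, so the genotypes were not shown to differ. Kcna2 and Kcna4 did not pass, the former at 0.09 (adjusted p = 0.51) and 0.25 (adjusted p = 0.131).

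Kv3 channels open and close fast, and some of them, not all, let interneurons fire at high rates. Kcnc4 fell from 4141, 4095 and 3827 to 2844, 2994 and 3298 in wild-type (log2 fold change -0.40 ± 0.07, adjusted p = 0.00278). It fell from 4578, 4142 and 3851 to 2997, 2942 and 3446 in AcPb-/- (log2 fold change -0.42 ± 0.08, adjusted p = 0.00783), with no overlap. With GC and length trends removed Kcnc4 was at -0.23 in wild-type (adjusted p = 0.031) and -0.18 in AcPb-/- (adjusted p = 0.19). Kcnc1 and Kcnc2 did not pass, the latter at 0.16 in wild-type (adjusted p = 0.083). Parvalbumin interneuron markers had summed normalized counts of 29050 to 36290 in the 12 libraries, and 1 of 5 rose in each genotype. Most of that sum was Gad1, at 17191 to 22123, while Pvalb itself ran from 1655 to 3417. The part of these cells in the Kcnc4 result was not tested.

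Kv4 subunits carry the A-type current, which delays firing and limits the spread of action potentials into dendrites, and the Kcnip genes encode the calcium-binding proteins that attach to them. Kcnd1 (chrX:7822289-7838280, plus strand) fell from 630, 554 and 625 to 405, 417 and 411 in wild-type (log2 fold change -0.55 ± 0.09, adjusted p = 0.00201) and from 664, 611 and 572 to 438, 512 and 477 in AcPb-/- (-0.37 ± 0.10, adjusted p = 0.0219). Kcnd1 is X-linked, and its levels within the undisturbed groups are given here without a test. The library CTL-WT-01, without Xist reads, was at 630 beside 554 and 625 in the Xist libraries of its group, and CTL-AcPbKO-03 at 664 was the highest of all. Only these undisturbed libraries are without Xist reads, as is every SD library. The part of X linkage in the fall of Kcnd1 was not tested. Values of Kcnd1 with the Xist term were -0.64 and -0.46 (adjusted p = 0.00159 and 0.00531), and in reads thinned to equal totals the AcPb-/- value was -0.32 and did not pass (adjusted p = 0.0927). Kcnd3 rose in wild-type from 4520, 3597 and 3477 to 5122, 4699 and 5557 (log2 fold change 0.41 ± 0.10, adjusted p = 0.0135), and had almost the same value in AcPb-/-, 0.42 ± 0.17, which did not pass (adjusted p = 0.0962). With the Xist term the wild-type value was 0.19 (adjusted p = 0.457). Kcnd2 fell in wild-type by 0.21 on the log2 scale (adjusted p = 0.0368), and its value in AcPb-/- was -0.22 (adjusted p = 0.0725), or -0.32 (adjusted p = 0.0136) with GC and length trends removed. Kcnd2 was at -0.09 in wild-type with the Xist term (adjusted p = 0.402).

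Kcnip3, also known as a calcium-dependent transcriptional repressor, rose from 5539, 5699 and 5238 to 6556, 7247 and 8805 in wild-type, a log2 change of 0.45 ± 0.10 (adjusted p = 0.00795). Its rise in AcPb-/- was from 6214, 5656 and 5532 to 7614, 7321 and 8301, a log2 change of 0.42 ± 0.07 (adjusted p = 0.00354). All SD libraries were above all undisturbed ones. Kcnip1, the member of this family typical of interneurons, rose from 1373, 1325 and 1520 to 1732, 1837 and 1504 in wild-type (0.26 ± 0.09, adjusted p = 0.0498) and from 1067, 1195 and 1406 to 1668, 1664 and 1425 in AcPb-/- (0.38 ± 0.11, adjusted p = 0.0313). The wild-type groups of Kcnip1 overlapped, since SD-WT-04 was below CTL-WT-03. Kcnip1 passed in neither genotype with GC and length trends removed (0.21 and 0.31, adjusted p = 0.0818 and 0.0809), and in wild-type it also missed the threshold in thinned reads (adjusted p = 0.0652) and with the Xist term (adjusted p = 0.0501). Kcnip2 and Kcnip4 did not pass, nor did Dpp6, the other Kv4 partner, at 0.11 (adjusted p = 0.229) and 0.05 (adjusted p = 0.69). Dpp10 fell by 0.32 (adjusted p = 0.00271) and by 0.36 (adjusted p = 0.028) on the log2 scale. Dpp10 passed in neither genotype with the Xist term.

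The silent Kv subunits (10 genes) had 2 lower in wild-type and 3 lower in AcPb-/-, with none higher. Over all genes 12.2% were lower in wild-type and 13.3% in AcPb-/-, and a common direction of this subfamily was not tested. Kcnv1 (chr15:45106284-45114920, minus strand), which reduces or slows Kv2 currents, fell from 7236, 7389 and 7911 to 4928, 5301 and 6271 in wild-type, a log2 change of -0.46 ± 0.09 (adjusted p = 0.0043). Its AcPb-/- counts fell from 5722, 7248 and 7026 to 4792, 4290 and 4722, a log2 change of -0.53 ± 0.09 (adjusted p = 0.00475). Kcns2, another silent partner of Kv2, fell by 0.33 (adjusted p = 0.0208) and by 0.37 (adjusted p = 0.0127) on the log2 scale, from means of 2410 and 2453 to 1917 and 1898. Neither gene had overlapping groups in either genotype. Kcnf1, the most abundant silent subunit per kb, was at 0.16 (adjusted p = 0.298) and 0.18 (adjusted p = 0.365). Kcng2 fell in AcPb-/- by 0.45 (adjusted p = 0.0413), and its wild-type value was -0.36 (adjusted p = 0.077). With GC and length trends removed the AcPb-/- value of Kcng2 was -0.14 (adjusted p = 0.545), and it passed neither with the Xist term (adjusted p = 0.058) nor in thinned reads (adjusted p = 0.084).

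Kv10 to Kv12 genes (Kcnh, 8 genes) had 4 lower in wild-type and 1 lower in AcPb-/-, with none higher. The all-gene shares lower were 12.2% and 13.3%, and a common direction was not tested here either. Kcnh3 (chr15:99224861-99242817, plus strand), a forebrain channel of this group, was at 11056, 11295 and 10530 in CTL-WT and 8220, 6940 and 8086 in SD-WT. It was at 10805, 11592 and 12905 in CTL-AcPbKO and 6847, 7325 and 6448 in SD-AcPbKO, again with every SD library below every undisturbed one. The log2 fold change was -0.50 ± 0.07 (adjusted p = 0.00131) in wild-type and -0.77 ± 0.08 (adjusted p = 0.000715) in AcPb-/-. Kcnh3 was, with GC and length trends removed, at -0.31 (adjusted p = 0.0074) and -0.48 (adjusted p = 0.00446). The difference of the effects was -0.27 with a 95% interval from -0.52 to -0.02 and an unadjusted p of 0.0334, but an adjusted p of 0.986. Kcnh5, Kcnh7 and Kcnh2 fell in wild-type by 0.42, 0.35 and 0.22 on the log2 scale (adjusted p = 0.00387, 0.0126 and 0.0313). After SD in AcPb-/- they were at -0.27, -0.07 and -0.18 (adjusted p = 0.279, 0.763 and 0.0674). None of these 3 passed with the Xist term, where each wild-type value was -0.20 (adjusted p = 0.391, 0.409 and 0.0891). Kcnh2 was at -0.019 in wild-type with GC and length trends removed (adjusted p = 0.854).

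Kv7 genes (Kcnq) encode the M-current, which muscarinic and other receptors shut off. Kcnq3 was at -0.14 and -0.08, with adjusted p of 0.183 and 0.513. Kcnq3 passed in both with GC and length trends removed, at -0.23 (adjusted p = 0.0192) and -0.24 (adjusted p = 0.0311). Kcnq5 was at 0.20 (adjusted p = 0.167) and 0.05 (adjusted p = 0.751). The calcium- and sodium-activated genes (8) had 1 call, Kcnn2, the small-conductance channel behind the afterhyperpolarization that follows spikes. Its normalized counts were 1042, 1099 and 1242 in CTL-WT and 1670.0, 1690 and 1593 in SD-WT, a log2 change of 0.55 ± 0.08 (adjusted p = 0.00114). Those of AcPb-/- mice were 1328, 1119 and 1136 undisturbed and 1632, 1603 and 1584 after SD, a log2 change of 0.43 ± 0.08 (adjusted p = 0.00472). All 6 SD libraries lay between 1584 and 1690, above all undisturbed ones. The large-conductance Kcnma1 (0.10 and 0.23, adjusted p = 0.265 and 0.072), the small-conductance Kcnn3 (0.02 and 0.09, adjusted p = 0.943 and 0.763) and the sodium-activated Kcnt1 (0.08 and -0.02, adjusted p = 0.592 and 0.914) and Kcnt2 (-0.04 and 0.07, adjusted p = 0.779 and 0.524) did not pass.

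Two-pore genes (14) make the leak channels, and had 1 higher and 4 lower in wild-type and 1 higher and 2 lower in AcPb-/-. Kcnk9, an acid-sensitive leak channel of neurons, fell from 1381, 1255 and 1262 to 1197, 917 and 1064 in wild-type (-0.30 ± 0.10, adjusted p = 0.0418) and from 1466, 1444 and 1404 to 1110, 1042 and 1108 in AcPb-/- (-0.40 ± 0.06, adjusted p = 0.00258). In thinned reads the wild-type value of Kcnk9 was -0.29 and did not pass (adjusted p = 0.06). Kcnk2, a stretch- and lipid-sensitive leak channel, fell in wild-type by 0.27 (adjusted p = 0.0364), and in AcPb-/- its value was -0.20 (adjusted p = 0.0518). In wild-type Kcnk2 did not pass with the Xist term (-0.23, adjusted p = 0.114), and it passed in 2 of the 6 fits with a library left out. Kcnk1, the most abundant per kb, was at 0.01 and 0.05 (adjusted p = 0.95 and 0.621). Kcnk13, typical of microglia, rose from 275, 239 and 244 to 314, 317 and 370 in wild-type (0.40 ± 0.11, adjusted p = 0.0265) and from 279, 212 and 178 to 312, 325 and 334 in AcPb-/- (0.56 ± 0.16, adjusted p = 0.0322). Of 6 microglial markers none rose, 1 fell in wild-type and 2 fell in AcPb-/-, and their summed normalized counts were 11809 to 12996 in CTL-WT, 11139 to 12158 in SD-WT, 11568 to 12615 in CTL-AcPbKO and 8654 to 10495 in SD-AcPbKO. Kcnk13 was at 0.16 with the Xist term in wild-type (adjusted p = 0.447) and at 0.32 in AcPb-/- (adjusted p = 0.104).

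Kcnk12, a two-pore subunit that gives little or no current when expressed alone, was at 504, 501 and 557 in CTL-WT and 381, 370 and 316 in SD-WT, a log2 change of -0.55 ± 0.10 (adjusted p = 0.00408). In AcPb-/- mice it was at 510, 554 and 624 undisturbed and 362, 402 and 347 after SD, a log2 change of -0.60 ± 0.11 (adjusted p = 0.00462). Its longest annotated transcript holds 69.4% GC, a share above that of 99.9% of genes. With GC and length trends removed the value was -0.11 (adjusted p = 0.491) in wild-type and turned to 0.02 (adjusted p = 0.889) in AcPb-/-. The median GC share of the longest transcript was 51.8% over the 93 and 49.5% over all genes.

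Of the 16 auxiliary genes, 3 rose and 1 fell in wild-type, and 2 rose in AcPb-/-. Beside Kcnip1 and Kcnip3, the wild-type calls were Kcne3 and Kcne4, single-span subunits of low level with 3 to 20 and 33 to 116 reads per library. Kcne3 was at 3.80, 5.63 and 3.35 in CTL-WT and 11.5, 8.30 and 10.4 in SD-WT (log2 fold change 1.09 ± 0.32, adjusted p = 0.0328), but at 15.7, 21.2 and 8.49 in CTL-AcPbKO and 9.29, 7.20 and 14.2 in SD-AcPbKO (-0.48 ± 0.40, adjusted p = 0.421). Kcne3 did not pass in wild-type by edgeR (adjusted p = 0.0641) or with the Xist term. Kcne4 fell in wild-type from 62.0, 113 and 120 to 35.7, 56.4 and 55.5 (-0.95 ± 0.28, adjusted p = 0.0307) and was at -0.24 in AcPb-/- (adjusted p = 0.602). With the Xist term the wild-type value of Kcne4 was -0.47 (adjusted p = 0.342). Kcnk5, a two-pore gene with 24 to 78 reads per library, fell in wild-type from 48.1, 85.9 and 67.1 to 16.8, 20.7 and 40.0 (-1.40 ± 0.33, adjusted p = 0.0123) and was at -0.37 in AcPb-/- (adjusted p = 0.407). Kcnk5 did not pass with the Xist term, at -1.19 in wild-type (adjusted p = 0.0669). The beta subunits Kcnab1 and Kcnab2 did not pass, at -0.14 and -0.18 in wild-type and 0.10 and -0.19 in AcPb-/-.

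**Figure D3:**
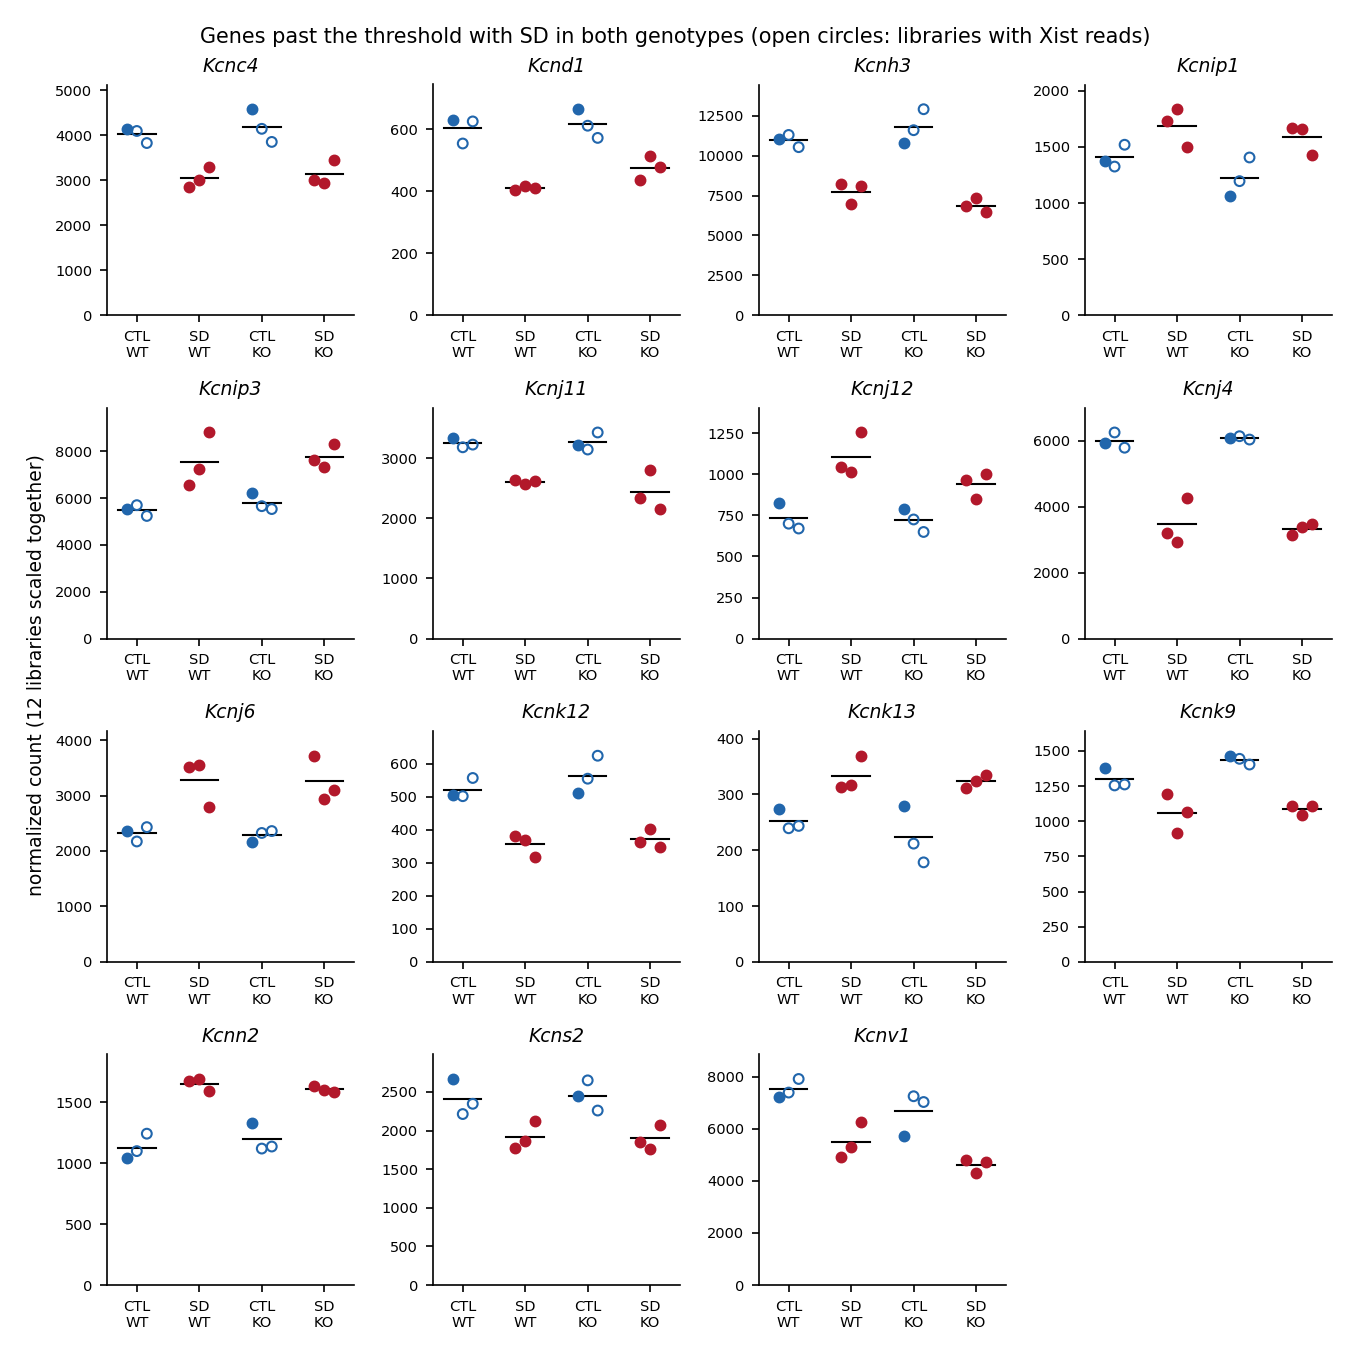
Normalized counts (y axis from 0, scaled over 12 libraries) of 15 of the 16 genes that passed the threshold in both genotypes, by group. Points are libraries, lines are group means, and open circles mark the 4 libraries with Xist reads. Kcnj4 fell from 5790 to 6252 in both undisturbed groups to 2938 to 4275 after SD.

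Other genes that work with potassium channels or move potassium were taken from a list of 25, all of which were tested. In wild-type 3 rose and 5 fell, and in AcPb-/- 3 rose and 5 fell. Over all genes tested, 25.4% passed in wild-type and 27.4% in AcPb-/-, and the list was not tested as a set. Among the AcPb-/- rises was Lrrc52, near the floor at means of 0.47 in CTL-AcPbKO and 3.09 in SD-AcPbKO. Those called in both were Abcc9 and Lgi1 (higher) and Abcc8, Dpp10 and Tmem175 (lower). Lgi1, a secreted protein that organizes Kv1 channels and glutamate receptors at synapses, rose by 0.44 (adjusted p = 0.00151) and 0.41 (adjusted p = 0.0128) on the log2 scale, the latter value being 0.26 (adjusted p = 0.0324) with GC and length trends removed. Tmem175, a lysosomal potassium-permeable channel, fell by 0.28 (adjusted p = 0.00981) and by 0.26 (adjusted p = 0.0147). The potassium-chloride cotransporter Slc12a5 fell in AcPb-/- by 0.31 (adjusted p = 0.0185) and was at -0.16 in wild-type (adjusted p = 0.116). Its AcPb-/- value was -0.14 with GC and length trends removed (adjusted p = 0.25). The median log2 fold change of the 25 was -0.07 in wild-type and 0.05 in AcPb-/-.

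The comparisons of SD within each genotype share no library. Of the 27 wild-type calls 59.3% were also called in AcPb-/-, and of the 20 AcPb-/- calls 80.0% were also called in wild-type, all 16 with the same direction. Over all genes tested in both, 19.3% passed in both with the same direction, beside 16 of 93 here. Those were 3870 genes, beside 5186 calls in wild-type and 5633 in AcPb-/- over all genes. The share of the 93 called in both, 17.2%, was near that of all genes, and how often calls recurred was not tested. Among the 69 genes that averaged 100 normalized counts or more, 58 had the same sign in both genotypes, and the log2 fold changes had Pearson's r of 0.90 and Spearman's rho of 0.88 across genes, which are not independent replicates. Neither the count of signs nor the correlations were taken over all genes. Both SD groups share the higher depth and the absence of Xist reads, so these points have that in common. Of the 11 called in wild-type alone, 9 had the same sign in AcPb-/- (all but Kcne3 and Kcnj5), and the 4 called in AcPb-/- alone (Kcna1, Kcng2, Kcnj16 and Kcnj2) had the same sign in wild-type.

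**Figure D4:**
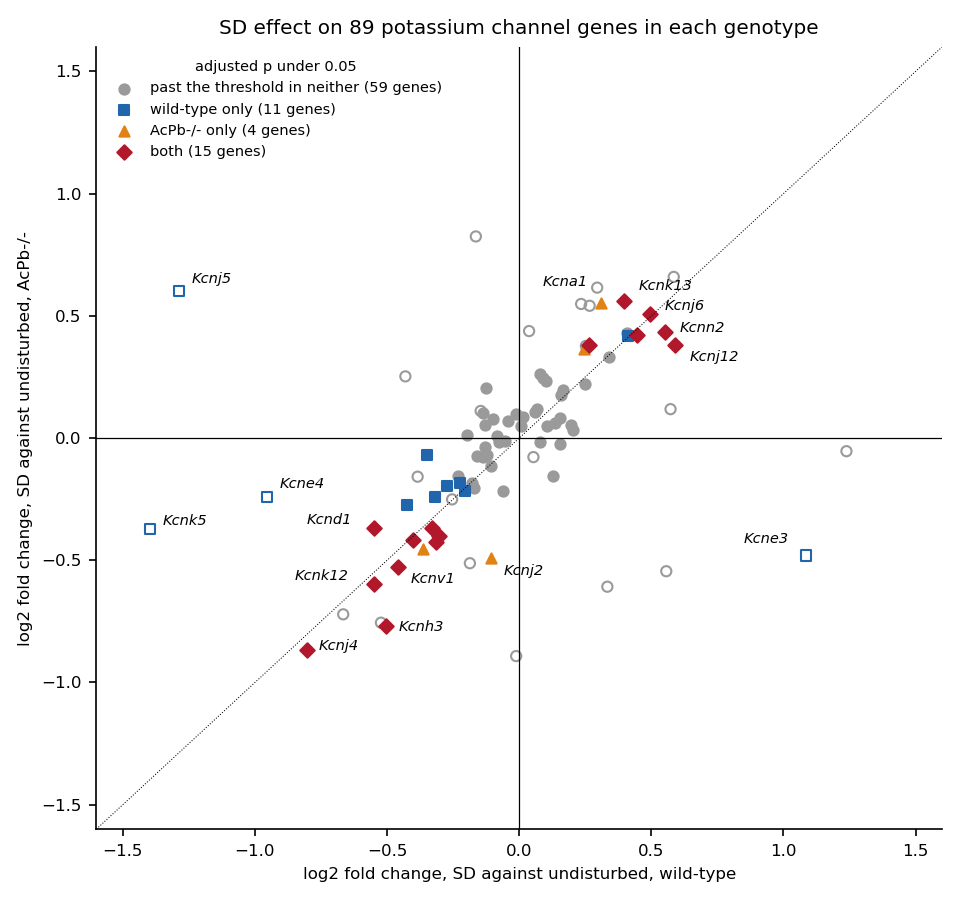
Log2 fold change with SD in wild-type (x axis) and AcPb-/- mice (y axis) of 89 of the genes, by where they passed an adjusted p of 0.05. Open symbols are genes with a mean normalized count under 100, and the dotted line marks equal values. The 15 plotted genes called in both lie near that line, and Kcnj5 at -1.29 and 0.60 and Kcne3 at 1.09 and -0.48 lie far from it.

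The test of the difference between the SD effects called none of the 93, nor any of the 20978 genes (0.0%), by limma, and 5 of the 93 (5.38%) had an unadjusted p under 0.05 (Kcna6, Kcne3, Kcnh3, Kcnj2 and Kcnj5), against 4.0% of all genes. DESeq2 and edgeR also called 0. For Kcnj4 the difference was -0.07 with a 95% interval from -0.38 to 0.25, for Kcnj6 0.01 from -0.30 to 0.32, and for Kcnn2 -0.12 from -0.36 to 0.11. These intervals allow differences of a size close to some of the SD effects themselves. Between the genotypes limma called 0 of the 93 in undisturbed mice, where 0.0197% of all genes passed, and 0 after SD, where 0.0145% passed. Unadjusted p was under 0.05 for 10 (10.8%) and 6 (6.45%) of them, against 8.53% and 6.13% of all genes. Kcna1, at a mean of 15259 in CTL-WT and 12297 in CTL-AcPbKO, had the smallest adjusted p in undisturbed mice (log2 fold change -0.31 ± 0.08, adjusted p = 0.354), and DESeq2 called it (adjusted p = 0.0372) while edgeR called 0. After SD the smallest was that of Kcnj2 (-0.33 ± 0.08, adjusted p = 0.343), and DESeq2 and edgeR called 0. These genotype comparisons share their libraries with the SD comparisons.

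Many of the SD calls changed with the set of libraries fitted, the Xist term or the removal of base composition trends. In a joint fit of all 12 libraries without an Xist term, 21 of the 27 wild-type calls and all 20 AcPb-/- calls still passed, and those lost were Kcnd2, Kcnd3, Kcnh5, Kcnh7, Kcnip1 and Kcnk13. With the Xist term in that fit, 15 and 16 passed, and each of the 27 and 20 kept its sign. With GC and length trends removed, 24 and 15 passed, and all kept their sign but Kcnk12 in AcPb-/-. In the 8 libraries without Xist reads, which leave 1 undisturbed library per genotype, whose spread is assumed to be that of the other groups, 2 and 6 passed, and all kept their sign. The genes called in both genotypes that also passed in both with the Xist term and in both with the trends removed were 10: Kcnd1, Kcnh3, Kcnip3, Kcnj11, Kcnj4, Kcnj6, Kcnk9, Kcnn2, Kcns2 and Kcnv1. Those that passed with each library left out in turn were 8: Kcnc4, Kcnh3, Kcnip3, Kcnj4, Kcnj6, Kcnk12, Kcnn2 and Kcnv1. Kcnj11 no longer passed in AcPb-/- without SD-AcPbKO-02 (adjusted p = 0.0567). Kcns2 no longer passed in wild-type without CTL-WT-01, SD-WT-01 or SD-WT-02 (adjusted p up to 0.0942), nor in AcPb-/- without CTL-AcPbKO-04 or SD-AcPbKO-02 (up to 0.0572). Kcnd1 and Kcnj12 passed in 2 of the 6 fits with a library left out in AcPb-/-, Kcnk9 in 1 of 6 in wild-type, Kcnip1 in 2 of 6 and Kcnk13 in 1 of 6 in each genotype. Of the genes called in one genotype alone, Kcnh5 and Kcnj5 in wild-type and Kcna1 and Kcnj2 in AcPb-/- passed in each such fit. Kcnh7 did so but without CTL-WT-02 (adjusted p = 0.0566), and the other 10 passed in 1 to 4 of 6.

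**Figure D5:**
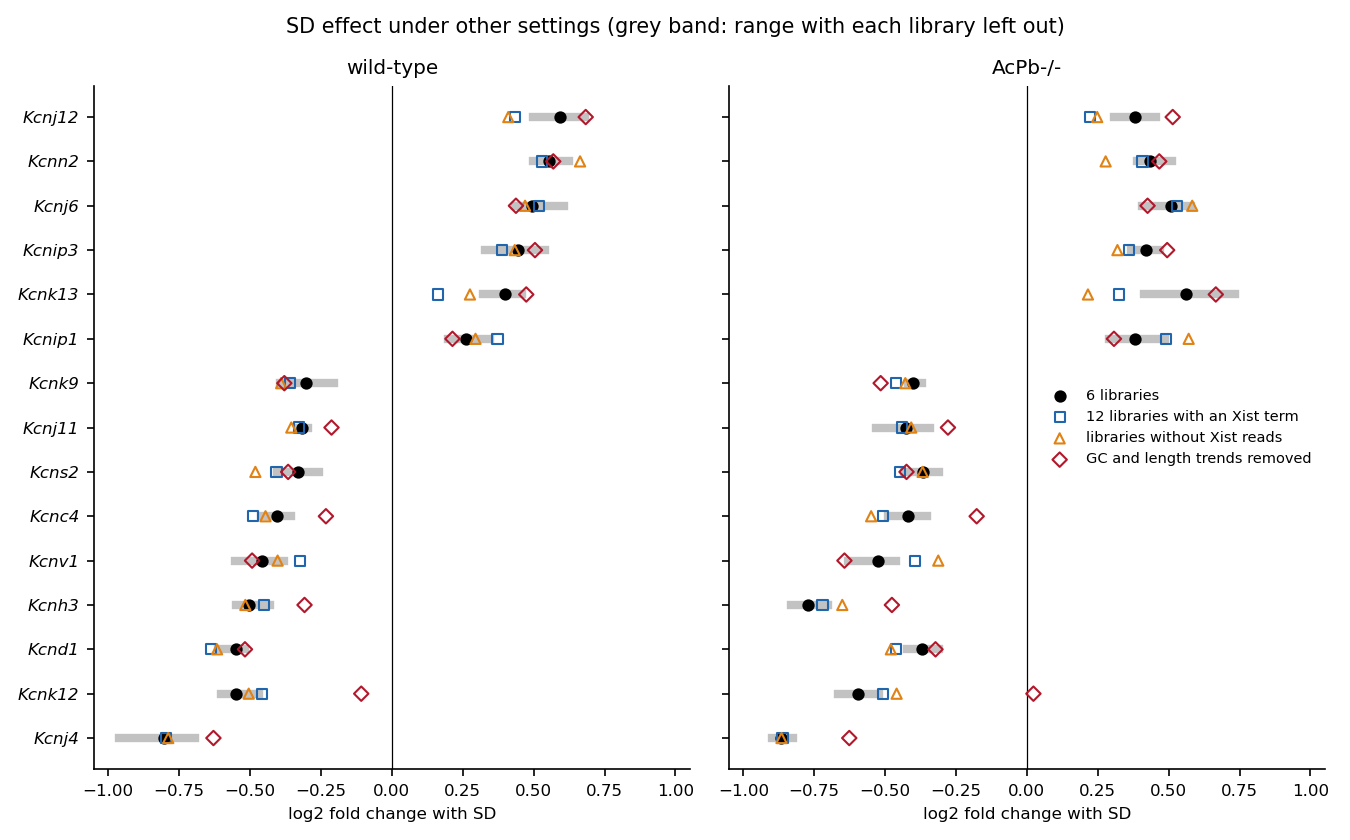
Log2 fold change with SD (x axis) of 15 of the 16 genes called in both genotypes, in wild-type (left) and AcPb-/- mice (right). Black points are the fits of 6 libraries, open symbols the same value with an Xist term, in libraries without Xist reads, or with GC and length trends removed, and grey bands the range with each library left out. The diamonds of Kcnk12 lie at -0.11 and 0.02, apart from its other values.

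Promoter windows of 300 bases around RefSeq transcript starts (GRCm38.p6) were at hand for 68 of the 93 genes, 93 windows in all. They were searched on both strands for the CRE half-site TGACG, the AP-1 motif TGANTCA and the E-box CACGTG, sites of factor families that activity or the clock engage in neurons. TGACG was in 18.3% of the 93 windows and 20.8% of all 32851, TGANTCA in 4.30% and 7.81%, and CACGTG in 7.53% and 7.15%. The shares were close to those of all promoters, or lower for AP-1. Windows of the genes held a median of 58.0% GC, against 52.7% for all. The windows of Kcnj4 and Kcnk12, which fell, and the first of those of Kcnj6 and Kcnip3, which rose, are shown for the genes that this account turns on, with a motif match in capitals and Kcnk12 without any. They lie on the minus strand at chr15:79505192-79505491, chr17:87797945-87798244, chr16:94997647-94997946 and chr2:127522045-127522344, and are written 5′ to 3′ in the direction of the gene.
Kcnj4: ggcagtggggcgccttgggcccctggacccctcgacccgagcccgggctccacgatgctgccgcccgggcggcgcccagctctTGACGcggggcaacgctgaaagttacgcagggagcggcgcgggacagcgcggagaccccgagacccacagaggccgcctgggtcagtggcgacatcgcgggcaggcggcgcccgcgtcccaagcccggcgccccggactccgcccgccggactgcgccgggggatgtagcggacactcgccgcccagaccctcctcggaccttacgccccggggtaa
Kcnk12: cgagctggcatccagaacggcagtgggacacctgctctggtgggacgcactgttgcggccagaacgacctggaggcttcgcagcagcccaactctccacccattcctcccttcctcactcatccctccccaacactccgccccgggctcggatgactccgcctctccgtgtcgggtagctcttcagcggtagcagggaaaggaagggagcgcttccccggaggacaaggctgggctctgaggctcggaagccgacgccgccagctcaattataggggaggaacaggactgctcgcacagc
Kcnj6: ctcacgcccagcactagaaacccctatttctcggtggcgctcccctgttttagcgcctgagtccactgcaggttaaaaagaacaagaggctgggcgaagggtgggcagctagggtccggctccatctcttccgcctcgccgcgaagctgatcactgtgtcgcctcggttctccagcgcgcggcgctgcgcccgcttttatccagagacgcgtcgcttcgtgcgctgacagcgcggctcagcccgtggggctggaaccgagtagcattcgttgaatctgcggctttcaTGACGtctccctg
Kcnip3: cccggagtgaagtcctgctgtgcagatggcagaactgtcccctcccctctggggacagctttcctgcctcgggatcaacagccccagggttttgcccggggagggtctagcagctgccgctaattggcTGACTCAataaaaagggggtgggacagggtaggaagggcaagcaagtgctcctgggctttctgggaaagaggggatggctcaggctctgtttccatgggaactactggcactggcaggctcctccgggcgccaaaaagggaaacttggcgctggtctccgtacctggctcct
A match describes the letters and not a bound site. The capitals mark TGACG in Kcnj4 and Kcnj6, genes that moved in opposite directions, and TGACTCA in Kcnip3.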

How the data were processed

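Total RNA of somatosensory cortex was sequenced by the authors (TruSeq Stranded mRNA, paired-end 100 bp), aligned to mm10 with HISAT2 and counted per gene, with HTSeq in the study's methods and featureCounts in the submitters' processing notes. The strand setting and annotation are not given in the sources used here. The deposited signal values in 5 tables are reads divided by the authors' DESeq2 size factors, each table normalized separately. Whole reads were recovered for 100.0% of 732630 values (within 0.01 read). The deposited log2 fold changes, score (test statistic) and p-value columns of the authors' comparisons were not used.

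Members and gene lists were chosen with earlier results of these data known. The named genes were the up to 12 highest and 12 lowest calls with a mean of at least 100 in each SD comparison, any call between genotypes, a list spread over the subfamilies, and the 5 highest and 5 lowest per kb. Other genes named were chosen after their values were seen. A few members are counted but not reported singly or plotted here. Kcnmb4os1 and Kcnmb4os2, whose endings carry a number, were left out with the other antisense rows. Exon lengths, positions and overlaps came from GENCODE M21 on GRCm38 (mm10), matched by symbol for all 93 genes and 98.5% of all rows. Each table's 6 libraries were tested with limma 3.58.1 (variance trend, two-sided) on log2(normalized count + 1), with genes having a read, Benjamini-Hochberg adjustment over all genes and a threshold of 0.05. The difference of the SD effects was tested in all 12 libraries scaled together by the median of ratios. Alternatives used DESeq2 1.42.0 and edgeR 4.0.16 on the reads, TMM, other filters and pseudocounts, thinning to 26504840 reads, a joint fit, an Xist term, a replicate block, each library left out, and, chosen after the data were seen, GC and length trends (loess span 0.3) and libraries without Xist reads. On simulated data with 200 genes changed 2-fold, 195 were recovered in the wild-type and 185 in the AcPb-/- comparison, and 155 for the difference of the SD effects. Most SD effects named above were smaller than 2-fold, and recovery of changes of that size was not measured. Replicates differed beyond sampling noise, with chi-square per degree of freedom of 6.61 to 34.2.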

Additional observations from a re-analysis of the deposited data

How the results depend on the processing

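With SD the 27 wild-type and 20 AcPb-/- calls became 14 and 10 at an adjusted p of 0.01, 2 and 6 in libraries without Xist reads, and 0 and 0 with a replicate block. Nothing in the labels pairs the libraries by number, and no comparison shares 3 numbers. Same-numbered libraries correlated at 0.11 and -0.09 in wild-type, -0.15 and -0.01 in AcPb-/-, 0.21 and 0.22 after SD and -0.47 in undisturbed mice. The block left 1 residual degree of freedom in the fits of 6 libraries, and it also gave 0 calls between genotypes after SD and for the difference of the effects. No block could be fitted in undisturbed mice, which share 1 number. Leaving out each library gave 15 to 34 calls in wild-type (15 without CTL-WT-02, 16 without SD-WT-01 or SD-WT-02) and 12 to 23 in AcPb-/- (12 without CTL-AcPbKO-04 or SD-AcPbKO-02). Between genotypes in undisturbed mice it gave 0 to 1 (1, Kcna6, without CTL-AcPbKO-03), and DESeq2 gave 1 (Kcna1). It gave 0 after SD and 0 for the difference of the effects. TMM, DESeq2, edgeR, thinning, the pseudocount and the filter on low counts kept the SD counts within 1.5 times.

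Of the values for called genes under all alternatives, 618 kept their side of the threshold, 226 no longer passed with the same direction, and 1 reversed, Kcnk12 in AcPb-/- at 0.023 with GC and length trends removed. Reversals were looked for only among the genes called in either SD comparison or on the list spread over the subfamilies. The others found were of genes not called in the genotype named. Under thinning, in wild-type Kcnk1 was at -0.0018, and in AcPb-/- Kcnj8 at -0.00013. Under the removal of GC and length trends, in wild-type Kcnn3 was at -0.071, and in AcPb-/- Kcnab1 at -0.034, Kcnc1 at 0.043, Kcnc2 at -0.028, Kcnh2 at 0.12, Kcnip2 at 0.050, Kcnn3 at -0.053, Kcnq5 at -0.037, Kcnt1 at 0.018 and Kcnt2 at -0.077. Under the Xist term, in wild-type Kcnn3 was at -0.18 and Kcnt2 at 0.072, and in AcPb-/- Kcnc1 at 0.018, Kcne4 at 0.24, Kcnh7 at 0.076 and Kcnn3 at -0.12. In libraries without Xist reads, in wild-type Kcnn3 was at -0.19 and Kcnt2 at 0.10, and in AcPb-/- Kcnc1 at 0.041, Kcne4 at 0.12, Kcnh5 at 0.14, Kcnh7 at 0.25, Kcnip2 at 0.11, Kcnn3 at -0.10 and Kcnq3 at 0.0021. Under the replicate block, in wild-type Kcnn3 was at -0.15 and Kcnt2 at 0.11, and in AcPb-/- Kcne4 at 0.089, Kcnip2 at 0.020 and Kcnn3 at -0.083. With a library left out, wild-type values ranged from -0.018 to 0.23 for Kcnj10, -0.0095 to 0.036 for Kcnk1, -0.12 to 0.12 for Kcnn3 and -0.12 to 0.064 for Kcnt2. Those of AcPb-/- ranged from -0.10 to 0.11 for Kcna4, -0.16 to 0.032 for Kcnc1, -0.23 to 0.062 for Kcnh7, -0.11 to 0.049 for Kcnip2, -0.17 to 0.30 for Kcnj8, -0.10 to 0.24 for Kcnn3, -0.049 to 0.13 for Kcnq5 and -0.11 to 0.076 for Kcnt1. The cause was not tested in any of these. Calls of Kcnj5, Kcnk5, Kcne3 and Kcne4 rest on the fewest reads.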

Other observations

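Among the 62 genes called in neither SD comparison, Kcnu1, a pH-gated relative of Kcnma1 known from sperm, had the same size of difference in both genotypes, at 0.34 ± 0.14 on the log2 scale in wild-type (SE, adjusted p = 0.107 by limma) and 0.33 ± 0.11 in AcPb-/- (adjusted p = 0.055). Its mean normalized counts were 214 in CTL-WT, 274 in SD-WT, 190 in CTL-AcPbKO and 239 in SD-AcPbKO. The wild-type groups overlapped, since SD-WT-04 at 218 was below CTL-WT-03 at 219, while SD-WT-01 and SD-WT-02 were at 311 and 293. The gene was chosen after its values were seen.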
